A study of Homo sapiens with 16 samples.

Results

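Semaphorin signalling was followed in 10 genes: 6 semaphorins (SEMA3A, SEMA3B, SEMA3C, SEMA3F, SEMA4B and SEMA7A), both neuropilins (NRP1 and NRP2) and 2 plexins (PLXNA1 and PLXNB2). They were picked by symbol out of 58735 genes, with their response to gemcitabine in these libraries already known. Their values in that comparison are therefore given as a description, without p-values. The choice had no numerical threshold. The annotation holds 31 semaphorin, neuropilin and plexin genes, and the other 21 were tested as a separate list.

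Semaphorins are secreted or membrane-bound proteins that steer axons, vessels and migrating cells, and that tumour cells make as well. Class 3 semaphorins are secreted and bind a neuropilin, which holds the ligand and passes the signal to a plexin of the A or D type, while most semaphorins anchored in the membrane bind plexins directly. Plexins act on small GTPases and so change adhesion and the cytoskeleton. Neuropilins also bind vascular endothelial growth factors (VEGFs), and in pancreatic cancer semaphorins are known for their part in nerve invasion and cell migration.

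The cells were BxPC3 and PANC-1, human lines from pancreatic ductal adenocarcinoma (PDAC), each 1 line from 1 tumour grown without stroma. Every line was sequenced as a control (CTRL) and with gemcitabine (GEM), a nucleoside drug used against this cancer, in 4 libraries per group and 16 in all. The labels give no further genetic change, no vehicle, no dose and no time, and they do not say whether replicates were separate cultures, so the spread between libraries may be technical. Levels are FPKM (fragments per kilobase of transcript, scaled to the size of the library). The length used is that of all annotated exonic bases of a gene (11522 for NRP1), not that of the transcript expressed. Levels of different genes, their shares and their ratios therefore compare only roughly. Changes are gemcitabine minus control on the log2(FPKM + 1) scale ± standard error (SE), a scale that understates the change of genes near 1 FPKM or below. Each line has a table of its own and how the tables were scaled to each other is not given, so levels in BxPC3 and PANC-1 are set side by side without a test.

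Libraries held 22152034 to 37777222 reads in listed genes. SMAD4, which BxPC3 is known to lack, had 0 reads in the 8 BxPC3 libraries, which allows up to 3 reads in each, and 3.03 to 4.04 FPKM in PANC-1. Of 5 ductal epithelial markers (KRT7, KRT8, KRT18, KRT19, EPCAM), all 5 reached 1 FPKM in every BxPC3 library and 4 did so in PANC-1, where KRT7 stood at 0.530 ± 0.157 FPKM (SD, n = 4) in controls. None of 3 leukocyte markers reached 1 FPKM in every library of a group, and of 4 fibroblast markers COL1A1 alone did. PANC-1 gemcitabine replicate 1 stood apart from its 3 companions along GC content: on the log2 scale GC-rich genes (top quartile) deviated by a median of 0.45 and GC-poor genes (bottom quartile) by -0.42. PANC-1 changes of members are given with and without that library, as are the counts of calls.

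In BxPC3, SEMA7A and NRP1 were the members furthest above control with gemcitabine, at 4.31 and 2.88 times the control mean. SEMA3B, SEMA3C and SEMA3F lay lowest against control, at 0.519, 0.573 and 0.546 times. In PANC-1, SEMA3C stood at 0.232 times its control level, while SEMA7A, NRP1 and SEMA3A stood at 2.56, 2.43 and 2.30 times. SEMA3C, SEMA3F, SEMA7A, NRP1 and PLXNA1 had the same direction in both lines, with groups that did not overlap in either. So did SEMA3B, though below the filter in PANC-1, and SEMA3A had opposite directions. The difference between lines was not tested for any member.

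With limma, 10 of 10 members in BxPC3 had an adjusted p under 0.05, 4 higher and 6 lower, beside 73.4% of the 12215 genes tested there (37.3% higher, 36.1% lower). In PANC-1, 8 members passed the filter on low values and 6 had an adjusted p under 0.05, 4 higher and 2 lower, beside 44.8% of 12508 genes (20.7% higher, 24.0% lower). SEMA4B and PLXNB2 were the exceptions, and SEMA3B and NRP2 were too low to be tested. Without gemcitabine replicate 1 the count was 8 of 8, with 5 higher and 3 lower, beside 69.8% of all genes (32.8% higher, 37.0% lower). PLXNA1 left the called members, making 5 of 8, when control replicate 1, 3 or 4 was left out and with a replicate block. In those fits 4639 to 4729 of all 12508 genes were called. PLXNA1 also left without the filter, where 5 of 10 members were called, beside 6275 of 33218 genes. Most of the 33218 lay below the filter, so that share is not a like background. The 4 treated libraries did not overlap the 4 controls for 10 of 10 members in BxPC3, 4 higher and 6 lower, beside 67.5% of genes tested (34.3% higher, 33.2% lower). In PANC-1 this held for 4 higher and 2 lower of the 8 tested, beside 45.8% (21.3% higher, 24.5% lower). Since the members were chosen on these values, nothing is read from their counts. The median change was -0.43 over the 10 members in BxPC3, beside 0.00 over all genes tested. It was 0.38 over the 8 tested in PANC-1, or 0.21 without gemcitabine replicate 1, beside -0.02. In the 18 cases where a member was tested in a line, its change kept its sign in 16 of 16 other settings. Where groups did not overlap, leaving out a library could not change the sign. The fits without the filter, with plain limma and with a replicate block keep the same estimate. Nothing is therefore read from the constant sign.

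**Figure D1:**
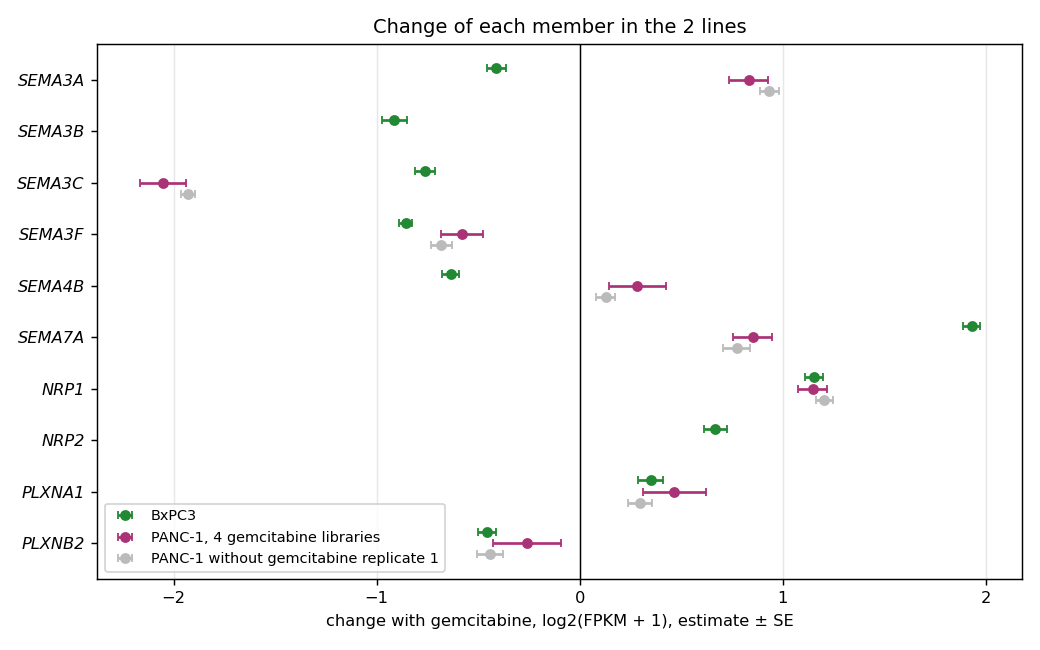
Change of each member with gemcitabine on the log2(FPKM + 1) scale (x axis, points are estimates, bars are SE) in BxPC3, in PANC-1 and in PANC-1 without gemcitabine replicate 1. SEMA3C lies at -2.05 in PANC-1, SEMA7A at 1.93 in BxPC3, NRP1 near 1.15 in both lines, and SEMA3A on opposite sides of 0. SEMA3B and NRP2 have no PANC-1 points because they were below the filter.

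Among controls the members spanned a wide range of levels. In BxPC3 controls PLXNB2 led with a mean of 177 FPKM, followed by SEMA4B (139), SEMA3F (82.8), PLXNA1 (59.1), SEMA3B (41.4), SEMA3C (22.7), SEMA3A (10.4), SEMA7A (5.69), NRP2 (3.47) and NRP1 (1.90). No neighbours in that order overlapped in their 4 values. With gemcitabine SEMA7A moved from place 8 to place 5, PLXNA1 passed SEMA3F, and NRP2 and NRP1, the last of the order, overlapped.

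PANC-1 controls were led by SEMA4B at 137 FPKM, before SEMA3C (66.5), PLXNB2 (44.4), PLXNA1 (15.1), SEMA3F (5.88), NRP1 (5.80), SEMA3A (1.56), SEMA7A (1.10), SEMA3B (0.763) and NRP2 (0.399). SEMA3F and NRP1 overlapped there. With gemcitabine SEMA3C went from place 2 to place 4, overlapping NRP1, and SEMA3F, SEMA3A and SEMA7A followed as a run of overlapping neighbours. These overlaps rest on treated replicate 1. In replicates 2 to 4 SEMA3C lay above NRP1, and SEMA3A, SEMA3F and SEMA7A followed in that order, without overlap. The values rest on 65 to 79 reads per library for SEMA3B in treated PANC-1 cells, the fewest of any member, and on 36329 to 48689 for PLXNB2 in BxPC3 controls, the most.

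**Figure D2:**
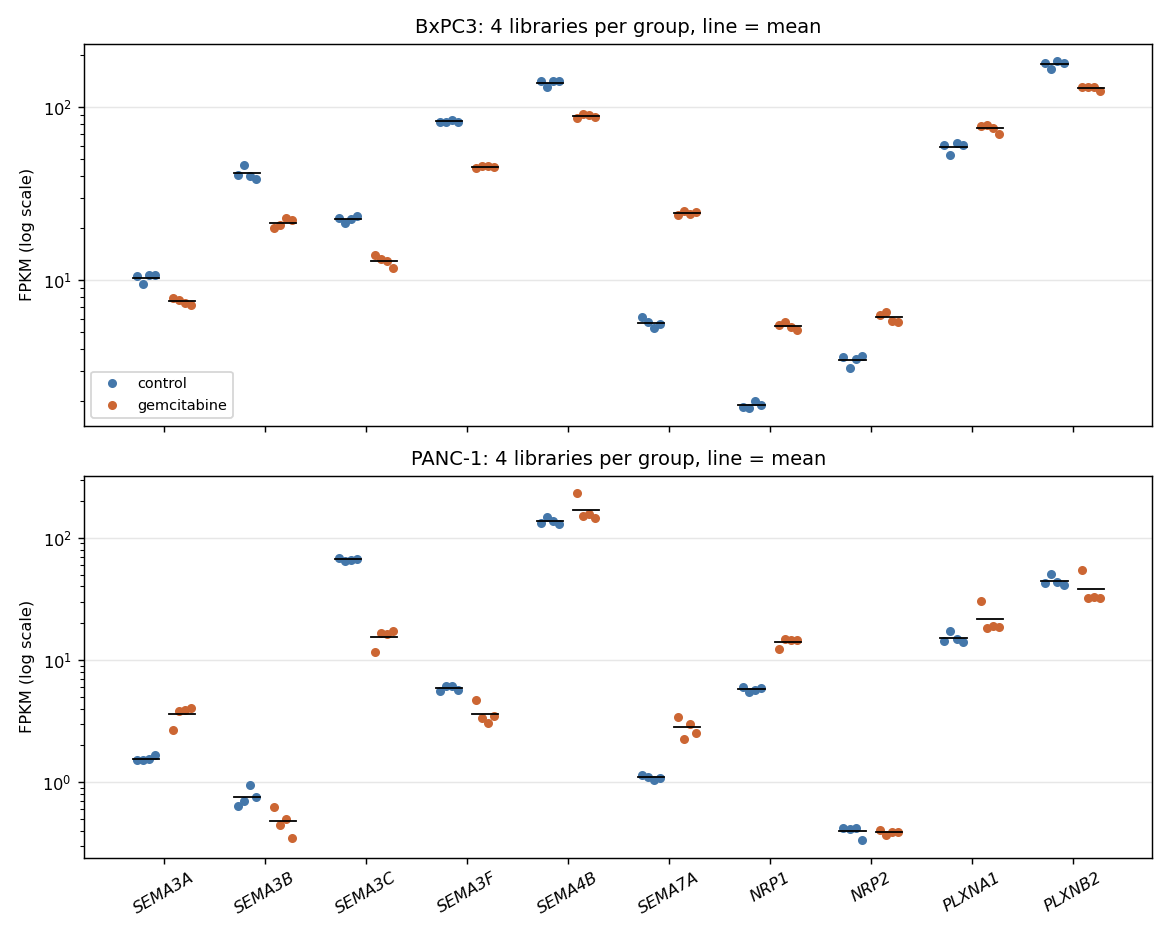
Level of each member in each library as FPKM on a log axis, control beside gemcitabine, with BxPC3 above and PANC-1 below; lines mark means of 4 libraries. The treated SEMA3C libraries of PANC-1, at 11.5 to 17.3 FPKM, sit far under the controls at 64.2 to 68.2. For SEMA4B, PLXNA1 and PLXNB2 1 treated PANC-1 library lies above the other 3.

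SEMA3C encodes a secreted class 3 semaphorin that binds both neuropilins (ENSG00000075223, chromosome 7, 80742538 to 80922359, minus strand, GRCh38). In PANC-1 it stood at 68.2, 64.2, 66.4 and 67.3 FPKM in control replicates 1 to 4 and at 11.5, 16.6, 16.3 and 17.3 FPKM with gemcitabine. The lowest control was thus well above the highest treated library, and treated replicate 1 was the lowest of all. The change was -2.05 ± 0.11, and -1.93 ± 0.03 without that replicate. In BxPC3, where SEMA3C was lower to begin with, controls stood at 23.0, 21.5, 22.7 and 23.6 FPKM and treated libraries at 14.0, 13.2, 12.97 and 11.8 FPKM. The groups did not overlap, and the change was -0.76 ± 0.05.

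SEMA3F, a class 3 semaphorin that signals through NRP2 and is known as a suppressor of tumour growth and vessels (ENSG00000001617, chromosome 3, 50155045 to 50189075, plus strand), was the most abundant class 3 member in BxPC3. Its controls stood at 81.7, 82.5, 84.6 and 82.6 FPKM and its treated libraries at 44.7, 45.5, 45.5 and 45.4 FPKM. The 2 groups were tight and far apart, with a change of -0.86 ± 0.03. PANC-1 held far less of it, with 5.57, 6.15, 6.15 and 5.64 FPKM in controls and 4.68, 3.35, 3.03 and 3.49 FPKM with gemcitabine. All treated libraries were below all controls, replicate 1 closest to them, and the change was -0.58 ± 0.10, or -0.68 ± 0.05 without it. An antisense gene, SEMA3F-AS1, shares 2.28% of the exonic bases of SEMA3F, and reads from the pair cannot be told apart without strand.

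SEMA3B lies on the same chromosome arm (ENSG00000012171, chromosome 3, 50267558 to 50277546, plus strand) and, like SEMA3F, is known as a candidate tumour suppressor of that region. BxPC3 controls stood at 40.6, 46.5, 40.1 and 38.6 FPKM and treated libraries at 20.2, 20.8, 22.8 and 22.3 FPKM, again without overlap and with a change of -0.91 ± 0.06. In PANC-1 all 8 libraries stayed below 1 FPKM, at 0.640, 0.701, 0.951 and 0.760 in controls and 0.630, 0.444, 0.503 and 0.350 with gemcitabine. Treated replicate 1 almost reached the lowest control, and at this level the gene did not pass the filter.

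SEMA3A, the first class 3 semaphorin known to repel axons, which acts through NRP1 and A-type plexins (ENSG00000075213, chromosome 7, 83955777 to 84492724, minus strand), had opposite directions in the 2 lines. BxPC3 controls stood at 10.5, 9.52, 10.7 and 10.7 FPKM and treated libraries at 7.88, 7.68, 7.43 and 7.17 FPKM, all of them below the controls, with a change of -0.41 ± 0.05. PANC-1 controls stood at 1.51, 1.53, 1.56 and 1.66 FPKM and treated libraries at 2.70, 3.80, 3.87 and 4.04 FPKM, all of them above the controls. The change was 0.83 ± 0.10, or 0.93 ± 0.05 without treated replicate 1, which was the lowest of its group. Both SEMA3A and SEMA3C lie on chromosome 7, and in PANC-1 the first was higher and the second lower with gemcitabine.

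Summed over the 7 class 3 genes, semaphorin mRNA in BxPC3 stood at 158 ± 2.02 FPKM in controls and 87.6 ± 0.969 FPKM with gemcitabine (SD, n = 4). Of that sum SEMA3F held 52.5% ± 0.837 in controls and 51.7% ± 0.519 with gemcitabine, SEMA3B held 26.2% ± 1.88 and 24.6% ± 1.27, and SEMA3C held 14.4% ± 0.722 and 14.8% ± 1.04, with overlapping groups. The SEMA3A share was 6.57% ± 0.423 and 8.62% ± 0.380, without overlap. In PANC-1 the sum stood at 75.7 ± 1.58 FPKM in controls and 24.4 ± 2.61 FPKM with gemcitabine. There the SEMA3C share was 87.9% ± 0.606 in controls and 63.0% ± 4.58 with gemcitabine, the SEMA3A share 2.07% ± 0.0853 and 14.7% ± 1.08, and the SEMA3F share 7.78% ± 0.550 and 15.3% ± 5.003. Treated replicate 1 had the lowest SEMA3C share, 56.2%, and the highest SEMA3F share, 22.8%, while the other 3 lay at 65.1% to 65.4% and 12.1% to 13.2%. In whole cultures, fewer cells that make a semaphorin and less RNA in each cell cannot be told apart.

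**Figure D3:**
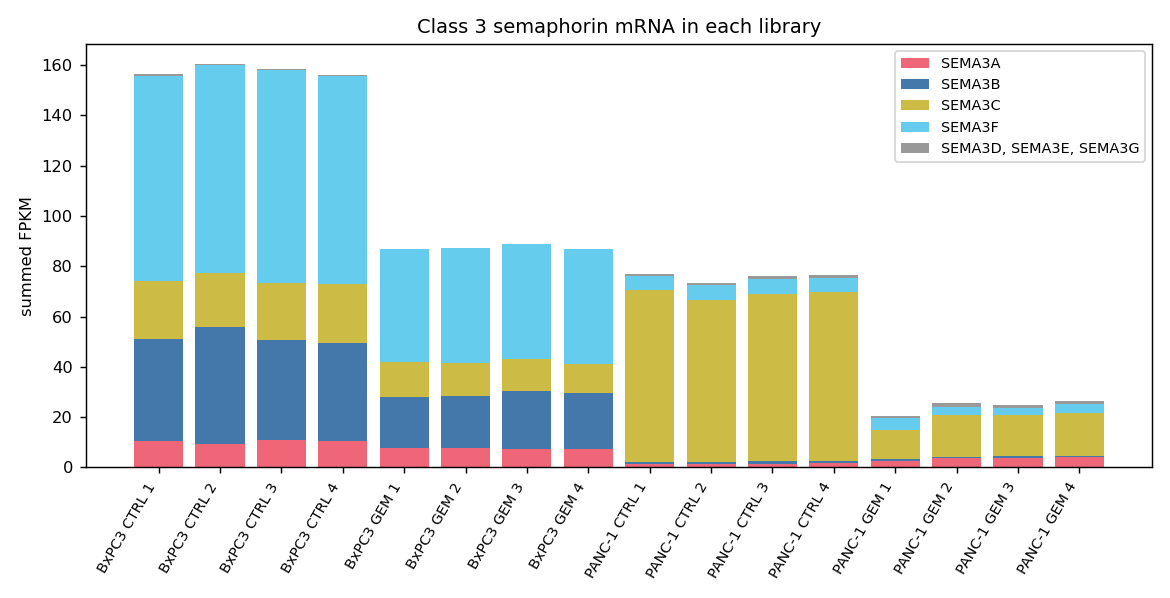
Summed FPKM of the 7 class 3 semaphorins in each of the 16 libraries, stacked by gene. BxPC3 falls from sums of 156 to 160.4 to sums of 86.9 to 89.0, and PANC-1 from 73.4 to 76.97, nearly all SEMA3C, to 20.5 to 26.4.

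SEMA7A, a semaphorin held to the membrane by a lipid anchor that binds PLXNC1 and beta-1 integrins (ENSG00000138623, chromosome 15, 74409289 to 74433958, minus strand), had the highest ratio to control of all members in BxPC3. In PANC-1 its ratio was 2.56, and 2.37 without treated replicate 1, when NRP1 (2.53) and SEMA3A (2.49) lay above it. BxPC3 controls stood at 6.14, 5.71, 5.31 and 5.59 FPKM and treated libraries at 24.0, 24.98, 24.2 and 24.9 FPKM, with a change of 1.93 ± 0.04. Both groups were tight and none of their values came near each other. PANC-1 controls stood at 1.16, 1.10, 1.05 and 1.08 FPKM and treated libraries at 3.45, 2.27, 2.98 and 2.53 FPKM. Here the treated libraries were more spread, all above the controls, and the change was 0.85 ± 0.09, or 0.77 ± 0.07 without replicate 1, the highest. PLXNC1, its plexin receptor, was below the filter in both lines, at 0.225 ± 0.0389 FPKM in BxPC3 controls and 0.148 ± 0.0157 FPKM in PANC-1 controls.

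SEMA7A and SEMA3C thus mark the highest ratio to control in BxPC3 and the lowest in PANC-1, and the 250 bases before their outermost RefSeq starts (GRCh38.p14) are shown for that reason. Both run 5′ to 3′ on the minus strand, SEMA7A from chr15:74433959-74434208 and SEMA3C from chr7:80922390-80922639. Only windows that hold no base of a GENCODE exon were printed, which left out a second window of each gene. The contrast between the windows shown depends on that choice. Capitals mark the GC box GGGCGG on either strand, so that its reverse complement reads CCGCCC.
SEMA7A: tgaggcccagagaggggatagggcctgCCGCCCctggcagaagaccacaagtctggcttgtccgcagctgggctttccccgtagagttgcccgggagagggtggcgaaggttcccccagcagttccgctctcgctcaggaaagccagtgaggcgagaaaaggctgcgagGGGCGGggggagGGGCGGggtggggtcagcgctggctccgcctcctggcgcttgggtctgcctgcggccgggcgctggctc
SEMA3C: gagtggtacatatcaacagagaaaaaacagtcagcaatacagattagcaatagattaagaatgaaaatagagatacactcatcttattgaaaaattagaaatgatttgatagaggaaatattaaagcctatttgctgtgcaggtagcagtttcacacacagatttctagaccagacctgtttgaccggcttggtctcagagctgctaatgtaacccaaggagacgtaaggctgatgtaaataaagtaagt
The SEMA7A window has 3 GC boxes and a GC content of 70.0%, the SEMA3C window none and 36.4%, beside a median of 58.0% over 35116 windows of the same length in RefSeq. Of all windows 42.6% hold that GC box. Neither window here matches the CCAAT motif on either strand, which 32.0% of all windows do. Neither matches the TATA box motif TATAAA (10.7% of all windows). Nor does either match the AP-1 core TGANTCA (6.57% of all windows). Since GGGCGG alone was found, no matches of different motifs overlap. A second RefSeq start of SEMA3C, at base 80919051 of chromosome 7, has 3 GC boxes and 77.6% GC in the window before it, all within GENCODE exons. Of the 10 members 8 had an entry, with 18 windows, of which 13 held a GC box. FPKM are given per gene, so which start the reads came from is not known.

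SEMA4B, a class 4 semaphorin that spans the membrane (ENSG00000185033, chromosome 15, 90160604 to 90229679, plus strand), was among the 2 most abundant members in every group. In BxPC3 its controls stood at 141, 131, 142 and 141 FPKM and its treated libraries at 87.0, 90.9, 90.1 and 87.5 FPKM. Controls lay clear above treated libraries, with a change of -0.64 ± 0.04. In PANC-1 its controls stood at 133, 149, 138 and 129 FPKM and its treated libraries at 232, 149.6, 156 and 144 FPKM. The groups overlapped, since treated replicate 4 was below control replicate 2, and treated replicate 1 was 1.54 times the mean of the other 3. The change was 0.28 ± 0.14, and 0.13 ± 0.05 without that library.

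The neuropilins NRP1 and NRP2, the ligand-binding co-receptors, came next. NRP1, which binds SEMA3A and VEGF (ENSG00000099250, chromosome 10, 33177492 to 33336262, minus strand), stood in BxPC3 at 1.85, 1.82, 2.01 and 1.91 FPKM in controls and 5.55, 5.76, 5.34 and 5.18 FPKM with gemcitabine. In PANC-1 it stood at 6.05, 5.47, 5.71 and 5.95 FPKM in controls and 12.3, 14.9, 14.6 and 14.5 FPKM with gemcitabine. The treated libraries were above all controls in both lines. The changes were 1.16 ± 0.04 in BxPC3 and 1.15 ± 0.07 in PANC-1, or 1.21 ± 0.04 without treated replicate 1, the lowest of its group. The antisense gene AL121748.2 shares 4.87% of the exonic bases of NRP1, the highest such share among the members.

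NRP2, the neuropilin that SEMA3F prefers (ENSG00000118257, chromosome 2, 205681990 to 205798133, plus strand), stood in BxPC3 at 3.61, 3.12, 3.51 and 3.65 FPKM in controls and 6.33, 6.57, 5.81 and 5.73 FPKM with gemcitabine. All treated libraries were higher, with a change of 0.67 ± 0.06. In PANC-1 it was below the filter, at 0.424, 0.412, 0.425 and 0.336 FPKM in controls and 0.407, 0.369, 0.392 and 0.394 FPKM with gemcitabine, and the groups overlapped. The sum of both neuropilins was 5.37 ± 0.285 FPKM in BxPC3 controls and 11.6 ± 0.659 FPKM with gemcitabine, and 6.20 ± 0.248 and 14.5 ± 1.18 FPKM in PANC-1. NRP1 stood at 0.548 ± 0.0350 times NRP2 in BxPC3 controls and 0.894 ± 0.0209 times with gemcitabine, while in PANC-1 the ratio was 14.7 ± 2.07 in controls and 36.2 ± 4.30 with gemcitabine.

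Neuropilins are also endothelial genes. Of 3 endothelial markers in BxPC3, CDH5 (VE-cadherin) was higher with gemcitabine, as NRP1 was, while PECAM1 and VWF had lower means. CDH5 stood at 0.603 ± 0.0524 FPKM in controls and 5.76 ± 0.263 FPKM with gemcitabine. PECAM1 stood at 0.756 ± 0.105 and 0.132 ± 0.0484 FPKM, and VWF at 0.151 ± 0.0166 and 0.112 ± 0.0185 FPKM. The summed level of the 3 ranged from 1.38 to 1.61 FPKM in controls and from 5.59 to 6.29 FPKM with gemcitabine, and CDH5 was the only one at 1 FPKM or more. In PANC-1 CDH5 had no reads in the controls and the 3 markers summed to at most 0.0821 FPKM in any library. Both lines were grown without stroma, and which cells of a culture held these transcripts was not tested.

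PLXNA1, an A-type plexin that carries class 3 signals across the membrane once a neuropilin has bound them (ENSG00000114554, chromosome 3, 126988594 to 127037392, plus strand), was higher with gemcitabine in both lines. BxPC3 controls stood at 60.4, 52.7, 62.4 and 60.8 FPKM and treated libraries at 78.0, 78.7, 75.9 and 69.5 FPKM, without overlap and with a change of 0.35 ± 0.06. PANC-1 controls stood at 14.3, 17.2, 14.9 and 14.1 FPKM and treated libraries at 30.4, 18.4, 19.0 and 18.8 FPKM. Treated replicate 1 was 1.62 times the mean of its companions, which lay just above the highest control. The change was 0.47 ± 0.15, and 0.30 ± 0.06 without that library.

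PLXNB2, a B-type plexin that binds class 4 semaphorins directly (ENSG00000196576, chromosome 22, 50274979 to 50307627, minus strand), was the most abundant member in BxPC3. Its controls stood at 179, 167, 184 and 179.6 FPKM and its treated libraries at 131, 131, 131 and 124 FPKM, with a change of -0.46 ± 0.04 and no overlap. PANC-1 controls stood at 42.7, 50.5, 43.5 and 40.8 FPKM and treated libraries at 54.4, 31.9, 32.7 and 32.3 FPKM. Treated replicate 1 was above all controls and the other 3 below all controls. The change was -0.26 ± 0.17, and -0.44 ± 0.06 without replicate 1, which is close to the BxPC3 value.

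The side on which PANC-1 gemcitabine replicate 1 fell followed the GC content of the transcript. Its log2 deviation from the mean of the other 3 treated libraries was 0.74 for PLXNB2 (63.1% GC), 0.67 for PLXNA1 (61.6%), 0.62 for SEMA4B (61.3%), 0.41 for SEMA3F (62.7%) and 0.31 for SEMA7A (60.5%). It was -0.23 for NRP1 (44.7%), -0.41 for SEMA3A (36.7%) and -0.50 for SEMA3C (39.4%). The GC trend of each library against the median of its own group was then removed. A GC trend shared by a whole group stays in the values. The PANC-1 changes were then -1.98 for SEMA3C, 1.18 for NRP1, 0.93 for SEMA3A, 0.78 for SEMA7A and -0.67 for SEMA3F. PLXNA1 stood at 0.38, PLXNB2 at -0.35 and SEMA4B at 0.20. The cause of the GC trend was not tested.

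**Figure D4:**
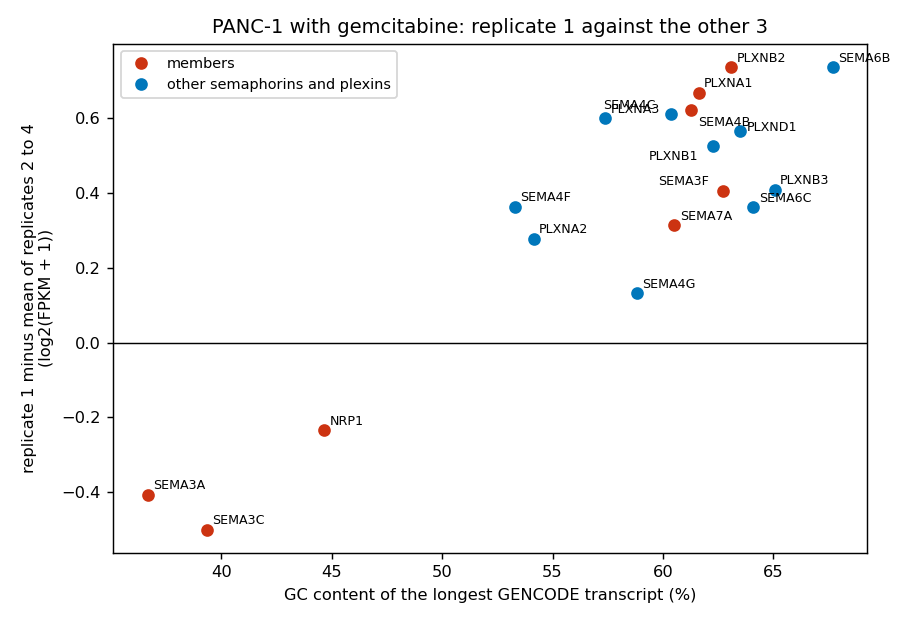
Deviation of PANC-1 gemcitabine replicate 1 from the mean of replicates 2 to 4 (y axis, log2(FPKM + 1)) against the GC content of the longest transcript (x axis, %), for the 8 members and 10 other family genes tested in PANC-1. The 3 GC-poor members lie below 0 and all GC-rich family genes above it.

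Of the 21 other semaphorins and plexins, 10 passed the filter in BxPC3. SEMA6B, a transmembrane class 6 semaphorin, rose 2.78-fold, and the class 4 semaphorins SEMA4A and SEMA4C fell to 0.495 and 0.416 times control. With limma, 4 rose and 5 fell at an adjusted p under 0.05, beside 37.3% of all genes tested higher and 36.1% lower. Of the 5, SEMA4G met the filter only through its controls, so that a high control level was a condition of the test. It is given by its values alone, and without it 4 rose and 4 fell of 9. SEMA6B rose from 2.40 ± 0.107 to 6.66 ± 0.781 FPKM (limma adjusted p = 2.23e-07). SEMA4C, a ligand of PLXNB2, fell from 16.3 ± 0.245 to 6.79 ± 0.202 FPKM (limma adjusted p = 1.61e-09). SEMA4A, known in immune cells, fell from 12.6 ± 0.428 to 6.24 ± 0.130 FPKM (limma adjusted p = 1.21e-08). SEMA4G stood at 1.91 ± 0.137 FPKM in controls and 0.509 ± 0.137 FPKM with gemcitabine. The A-type plexins PLXNA2 and PLXNA3 rose by 0.48 ± 0.07 and 0.49 ± 0.05 (limma adjusted p = 0.000214 and 1.15e-05), and SEMA4F by 0.37 ± 0.04 (limma adjusted p = 3.74e-05). PLXNB1, the receptor of SEMA4D, fell by 0.34 on the log2 scale (SE 0.04, limma adjusted p = 2.32e-05). PLXND1, a receptor of SEMA3E, fell by 0.23 (SE 0.07, limma adjusted p = 0.0095), though its groups overlapped and TPM scaling ended the call (limma adjusted p = 0.0958). The median change of the 10 was -0.18. PLXNB3 did not pass (change -0.13 ± 0.07, limma adjusted p = 0.139).

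In PANC-1, 10 of the 21 passed the filter, 1 rose and 4 fell, beside 20.7% and 24.0% of all genes tested, with a median change of -0.15. PLXNA2 rose from 1.44 ± 0.122 to 3.14 ± 0.427 FPKM (limma adjusted p = 8.50e-05). PLXND1 fell from 34.9 ± 2.73 to 21.4 ± 4.83 FPKM (limma adjusted p = 0.00258) and SEMA6C from 2.03 ± 0.159 to 1.19 ± 0.293 FPKM (limma adjusted p = 0.00297). PLXND1 was the most abundant of these plexins in PANC-1. The other 2 of the 4, SEMA4G and PLXNB3, had at most 1 treated library at 1 FPKM and so met the filter through their controls. Without them 1 rose and 2 fell of 8. SEMA4G stood at 2.86 ± 0.190 FPKM in controls and 1.03 ± 0.0957 FPKM with gemcitabine. The change of PLXNB3 was -0.35 ± 0.10, and its call was lost without control replicate 1 or 3 or gemcitabine replicate 2, 3 or 4. SEMA4C, SEMA4F, SEMA6B, PLXNA3 and PLXNB1 did not pass. Without gemcitabine replicate 1 the count was 1 higher and 7 lower, beside 32.8% and 37.0% of all genes, with SEMA4C at -0.21, SEMA4F at -0.23 and PLXNB1 at -0.30 added (limma adjusted p = 0.00139, 0.000246 and 0.00056). The 7 still hold SEMA4G and PLXNB3.

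**Figure D5:**
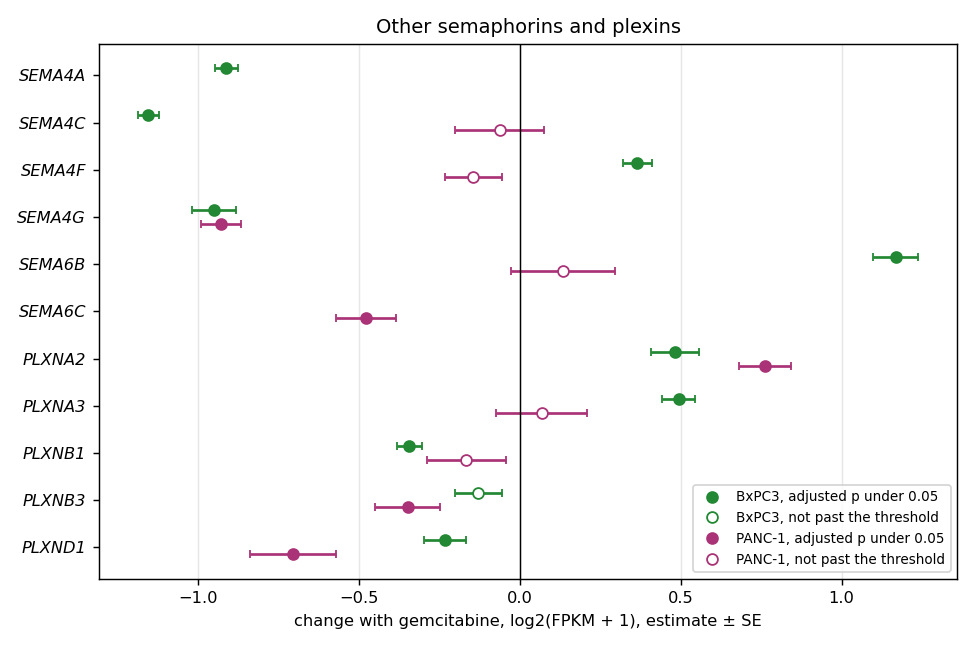
Change with gemcitabine on the log2(FPKM + 1) scale (x axis, estimate ± SE) of the 11 other semaphorins and plexins tested in at least 1 line, filled where the adjusted p was under 0.05. SEMA4G lies near -0.95 in both lines, while SEMA4C and SEMA6B lie at -1.15 and 1.17 in BxPC3 and at -0.06 and 0.13 in PANC-1.

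The change differed between the lines for 8 of 11 of these genes by limma's interaction test, 3 higher and 5 lower in PANC-1, beside 51.8% of all 14134 genes tested (25.2% higher, 26.6% lower). SEMA4A and SEMA6C entered it through 1 line only, the one where they are high, and without them 2 were higher and 4 lower of 9. The 9 still hold SEMA4G, which met the filter through its controls in both lines. Relative to BxPC3 the PANC-1 change was higher by 1.09 ± 0.15 for SEMA4C (limma adjusted p = 1.41e-05) and lower for SEMA6B, at -1.03 ± 0.18 (limma adjusted p = 0.000211), SEMA4F, at -0.51 ± 0.10 (limma adjusted p = 0.000389), and PLXND1, at -0.47 ± 0.16 (limma adjusted p = 0.0184). SEMA4A stood at 0.0536 FPKM in PANC-1 controls and SEMA6C at 0.618 FPKM in BxPC3 controls, levels at which the log2(FPKM + 1) scale leaves little change to see, so their differences are not read. For PLXNA3 it was -0.43 ± 0.16 (limma adjusted p = 0.0327) and for PLXNA2 0.28 ± 0.11 (limma adjusted p = 0.049). Leaving out single libraries took PLXNA3 to a limma adjusted p of 0.0694 and PLXNA2 to 0.105 at most. PLXNA2 also lost its call without PANC-1 gemcitabine replicate 1 (limma adjusted p = 0.066). The changes of SEMA4G were -0.95 ± 0.07 in BxPC3 and -0.93 ± 0.06 in PANC-1, with a difference of 0.02 ± 0.09. As a ratio it stood at 0.267 times control in BxPC3 and 0.360 times in PANC-1. The log2(FPKM + 1) scale understates both changes at this level, so the difference is not read.

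Genes that work with semaphorin receptors were followed in 3 lists: 17 co-receptors and competing neuropilin ligands, 31 intracellular transducers and 6 proteases. Of these 54 genes, 38 were tested in BxPC3. With TPM scaling 20 rose and 8 fell, beside 5199 and 3687 of all 12215 genes. Without it 19 rose and 13 fell with limma, beside 37.3% and 36.1% of all genes, with a median change of 0.10. By list, 3 rose and 4 fell of 9 co-receptors and ligands, 13 rose and 8 fell of 24 transducers (14 and 4 with TPM scaling), and 3 rose and 1 fell of 5 proteases. In PANC-1, 43 were tested, of which 14 rose and 6 fell, beside 20.7% and 24.0% of all genes, with a median change of 0.12. These were 5 and 3 of 11 co-receptors and ligands (5 and 6 with the GC trend removed), 7 and 2 of 27 transducers, and 2 and 1 of 5 proteases. With the GC trend removed 3858 of all 12508 genes were higher and 4451 lower. Without PANC-1 gemcitabine replicate 1 the 14 and 6 became 20 and 10, beside 32.8% and 37.0% of all genes. Some genes met the filter only through their treated libraries: MICAL1, MICAL3 and PGF in BxPC3 and KDR, CRMP1 and DPYSL3 in PANC-1, all counted as risen and named after their values were seen. Without them 16 rose and 13 fell of 35 in BxPC3, and 11 rose and 6 fell of 40 in PANC-1.

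Among the co-receptors and ligands, KDR, the main VEGF receptor beside which NRP1 acts, stood in PANC-1 at 0.515 ± 0.111 FPKM in controls and 3.47 ± 0.305 FPKM with gemcitabine. VEGFC, a ligand of NRP2, rose there from 3.59 ± 0.247 to 8.42 ± 0.283 FPKM (limma adjusted p = 2.22e-06). L1CAM, an adhesion molecule that binds NRP1 beside SEMA3A, fell in PANC-1 from 74.2 ± 3.93 to 41.5 ± 8.69 FPKM (limma adjusted p = 0.000622). In BxPC3 the ligands VEGFA and VEGFB fell to 0.697 and 0.513 times control (limma adjusted p = 3.12e-07 and 7.48e-07). ERBB2, a kinase that joins B-type plexins, fell there to 0.447 times (limma adjusted p = 1.18e-09). In PANC-1, ERBB2 fell by 0.36 (SE 0.11, limma adjusted p = 0.0256) and VEGFA rose by 0.19 ± 0.07 (limma adjusted p = 0.0401). Both calls were lost without any 1 of several libraries: ERBB2 without control replicate 2, 3 or 4 or gemcitabine replicate 2, 3 or 4 (limma adjusted p up to 0.0714), and VEGFA without any library but gemcitabine replicate 1 (up to 0.113). VEGFB, at -0.24 ± 0.13 in PANC-1, was called only without gemcitabine replicate 1 or its GC trend (limma adjusted p = 3.39e-06 and 0.000206).

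Of the transducers, RND1, which binds plexins inside the cell, rose 4.16-fold in BxPC3 (limma adjusted p = 3.21e-09). FYN, a kinase in SEMA3A signalling, rose in both lines, 2.07-fold in BxPC3 (limma adjusted p = 3.37e-07) and by a factor of 1.84 in PANC-1 (limma adjusted p = 2.54e-05). PAK1, a kinase downstream of Rac, fell to 0.482 times control in BxPC3 and rose 1.71-fold in PANC-1 (limma adjusted p = 9.63e-09 and 6.42e-06). FARP1, an exchange factor tied to A-type plexins, fell in PANC-1 to 0.550 times control (limma adjusted p = 7.76e-05).

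The proteases include proprotein convertases, which cut class 3 semaphorins and so set their activity. PCSK7 rose in both lines, by 0.23 ± 0.05 in BxPC3 and 0.34 ± 0.08 in PANC-1 (limma adjusted p = 0.00266 and 0.00817). FURIN rose by 0.30 ± 0.04 in BxPC3 (limma adjusted p = 5.14e-05). Its change in PANC-1 was 0.37 ± 0.14 (limma adjusted p = 0.0594), and 0.21 without gemcitabine replicate 1 (limma adjusted p = 0.00168). PCSK6 rose by 0.16 ± 0.05 in BxPC3 and fell by 0.28 (SE 0.07) in PANC-1 (limma adjusted p = 0.0115 and 0.0119). ADAM10, a protease that sheds membrane proteins, fell in BxPC3 to 0.644 times control (limma adjusted p = 2.38e-07). In PANC-1 its change was 0.25 ± 0.10 (limma adjusted p = 0.0739), and 0.36 without gemcitabine replicate 1 (limma adjusted p = 1.46e-05). ADAM17, another such protease, rose by 0.27 ± 0.07 in PANC-1 (limma adjusted p = 0.0149, and 0.0594 with a replicate block), and its change in BxPC3 was -0.07 ± 0.05 (limma adjusted p = 0.209).

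The 4 genes outside the family whose log2(FPKM + 1) followed SEMA3C most closely were ZNF3, TMEM67, DHTKD1 and IDH1. Their Pearson r was 0.977, 0.974, 0.972 and 0.972 over the 16 libraries, which share 2 lines, 2 treatments and their depth, and they were ranked among 9747 protein-coding genes. IDH1, a metabolic enzyme, stood at 43.3 ± 2.19 FPKM in PANC-1 controls and 19.9 ± 2.24 FPKM with gemcitabine, and at 24.2 ± 1.80 and 20.6 ± 1.23 FPKM in BxPC3.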

How the data were processed

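RNA was extracted with a kit from BxPC3 and PANC-1 cells and poly-A RNA was sequenced, as the labels' protocols state. For each line the authors deposited a table of FPKM by gene and library, per the file headers, and gene length in bases, a deposited value in another unit. CASAVA, HISAT2 and the mouse build mm10 are named in the submitters' processing notes, but all 58735 gene identifiers are human and carry GENCODE 29 positions on GRCh38. Which program counted reads, and whether it used strand, is not given in the sources used here.

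FPKM times gene length gave whole reads for 100.0% of 402774 values above 0, to within 0.02 reads. The sum of listed reads was 0.963 to 1.05 times the library size implied by the values, so these already hold a scaling. Genes with 1 FPKM or more in 4 libraries or more of a line entered limma 3.58.1 (R 4.3.3), fitted to log2(FPKM + 1) with its trend and robust options, and p-values were adjusted by Benjamini-Hochberg over all of them. The interaction used all 16 libraries. The fit was also run on simulated counts with few changed genes and no library shifted along GC content. These data differ on both points, so nothing is drawn from that run. Tables were handled with pandas 2.3.3, and figures drawn with matplotlib 3.10.9. Libraries of a group differed by more than counting noise, with a chi-square of 2.07 or more per degree of freedom.

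Members and lists were chosen with earlier results of these data known. Named genes were all members, the relatives that passed in a line or the interaction, and, of each partner list, the 3 smallest p in each line, as well as the 4 genes most like SEMA3C and the label checks. CDKN2A, the other label check beside SMAD4, had 0 reads in all 16 libraries, which allows up to 3 reads in each. The fits were repeated with 0.1 as pseudocount, without the filter, scaled by median ratios or as TPM, with plain limma, with a replicate block and without each library. Limma-voom on the recovered reads and removal of the GC trend were added after seeing the data. Limma-voom called 9060 genes in BxPC3 and 5785 in PANC-1. The GC trend, a spline with 4 degrees of freedom, was fitted to each library's deviation from its group median. A GC trend shared by a whole group is not removed. Promoters are RefSeq's. Limits from reads cover counting error alone, as PCR can copy a molecule.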

Additional observations from a re-analysis of the deposited data

Results flagged for a closer look

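In PANC-1 gemcitabine replicate 1 the lowest or highest of 4 values lay further from the other 3 than Dixon's critical value allows for 13 of the genes described: SEMA3C at 11.5 and NRP1 at 12.3 FPKM were the lowest, and SEMA4B at 232, PLXNA1 at 30.4, PLXNB2 at 54.4, SEMA4C at 19.2, SEMA4F at 6.95, SEMA4G at 1.17, SEMA6B at 10.01, SEMA6C at 1.62, PLXNA3 at 12.9, PLXNB1 at 2.44 and PLXND1 at 28.6 FPKM the highest. Chance alone gives such a gap in about 1 of 20 groups, and the genes share this library. In BxPC3 the same held for SEMA3F in gemcitabine replicate 1 (44.7 FPKM, lowest), SEMA4B in control replicate 2 (131 FPKM, lowest) and PLXNB2 in gemcitabine replicate 4 (124 FPKM, lowest).

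The change with gemcitabine differed between lines, by limma's interaction, for SEMA4C (1.09), higher in PANC-1. It was lower there for SEMA4F (-0.51), SEMA6B (-1.03) and PLXND1 (-0.47), the last not called without the filter (limma adjusted p = 0.0504). PLXNA2 (0.28) and PLXNA3 (-0.43) were called as well, but lost their calls with a replicate block and without several single libraries. SEMA4A (0.91) and SEMA6C (-0.41) entered through 1 line only, the one where they are high, and are not read as differences. SEMA4A stands at 0.0536 FPKM in PANC-1 controls and SEMA6C at 0.618 FPKM in BxPC3 controls, so these 2 values mostly restate the change in the other line. For SEMA3A every treated library lay below every control in BxPC3 (0.728 times control) and above every control in PANC-1 (2.30 times), and that difference was not tested.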

How the results depend on the processing

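All 18 tested changes of members kept their sign under every alternative, with SEMA3C in PANC-1 at -2.14 to -1.93 and SEMA7A in BxPC3 at 1.90 to 2.17. For groups that did not overlap, leaving out a library could not change the sign, so nothing is read from it. Leaving out 1 library each gave 8543 to 9117 genes called in BxPC3 (8964 with all) and 4641 to 8728 in PANC-1 (5602 with all), the highest without gemcitabine replicate 1. For the other semaphorins and plexins it gave 9 to 10 in BxPC3, 4 to 8 in PANC-1 and 6 to 8 for the difference between lines, and for partners 28 to 31 and 18 to 30. Of all 14134 genes the difference was then called for 6868 to 9194. With no filter 14 other semaphorins and plexins were called in BxPC3, of 21 tested, beside 10713 of 36939 genes. Most of the 36939 lay below the filter, so that share is not a like background. Among the 12215 genes above the filter 73.4% were called in the main fit. With the GC trend removed 8 were called in PANC-1, and 32 partners, beside 8309 of all 12508 genes. SEMA4C in PANC-1 ranged from -0.21 to 0.0052 over the left-out libraries, SEMA6B from -0.049 to 0.22, PLXNA3 from -0.082 to 0.13, and the difference for SEMA4G from -0.016 to 0.081. That difference was -0.045 with the GC trend removed, and the one for PLXNB1 was -0.012 with limma-voom. None of these 5 passed the threshold with all libraries, and SEMA4C did so without gemcitabine replicate 1 or its GC trend. The cause was not tested.

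Replicate numbers did not pair the libraries: deviations of control and treated libraries with the same number correlated at -0.38 to 0.19, and 1 of 8 controls correlated best with its own number. With a replicate block 8553 genes were called in BxPC3 and 4639 in PANC-1. The block left 10 of 10 and 5 of 8 members, 9 and 5 other semaphorins and plexins, 6 for the difference (PLXNA2 and PLXNA3 lost), and 30 and 17 partners. For the difference 6608 of all 14134 genes were called with it. Genes under 1 FPKM, such as SEMA3B and NRP2 in PANC-1, rest on few reads and were not tested.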

Other observations

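Several family genes below the filter had groups that did not overlap, given here as values without a test. Among genes tested, which passed the filter, such groups held for 67.5% in BxPC3 and 45.8% in PANC-1. The share among genes below the filter was not taken, so there is no like background for these. In BxPC3, SEMA4D, the ligand of PLXNB1, stood at 0.0479 ± 0.0134 FPKM in controls and 0.345 ± 0.0361 FPKM with gemcitabine (SD, n = 4). In PANC-1 it was lower with gemcitabine, at 0.484 ± 0.0149 and 0.397 ± 0.0509 FPKM, again without overlap. SEMA5A was lower in BxPC3 and higher in PANC-1, PLXNC1 lower in BxPC3 and SEMA5B lower in PANC-1, all without overlap. SEMA6A and SEMA6D, transmembrane semaphorins that bind A-type plexins, stood at 0.399 ± 0.0555 and 0.290 ± 0.0603 FPKM in BxPC3 controls and at 0.134 ± 0.0321 and 0.0773 ± 0.0196 FPKM with gemcitabine. SEMA3E, the ligand of PLXND1, stood at 0.229 ± 0.0279 and 0.0713 ± 0.0149 FPKM there. In PANC-1 it stood at 0.470 ± 0.0739 and 0.711 ± 0.147 FPKM, with groups that overlapped.

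The neuropilin-binding adhesion molecule L1CAM, which fell in PANC-1, was below the filter in BxPC3, at 0.0776 ± 0.0203 FPKM in controls and 0.774 ± 0.0567 FPKM with gemcitabine. VEGFC, which rose in PANC-1, stood in BxPC3 at 0.136 ± 0.0351 and 0.649 ± 0.0587 FPKM. Neither BxPC3 pair of groups overlapped, and neither was tested there.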
